A study of Mus musculus with 4 samples.

Results

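Proteasome subunit genes were measured in the liver of control mice and of mice labelled hepatic reductase null, on 2 arrays each. Members were the genes whose probe set on the Affymetrix MG_U74Av2 array is assigned to 1 gene symbol only, where that symbol begins with Psma, Psmb, Psmc, Psmd or Psme and a digit. The rule found 53 probe sets of 42 genes, among 8251 genes with a single symbol on the array. They were 14 genes of the core particle, 20 of the regulatory cap, 4 of the immunoproteasome and the 2 other activators Psme3 and Psme4. The remaining 2, Psmc3ip and Psme3ip1, meet the rule by name but encode proteins that bind a subunit or take part in meiotic recombination, not subunits, so 40 genes were subunits, cap assembly chaperones or activators (subunit genes below). Psme2 was not a member, since its probe sets are also assigned to Psme2b.

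The control group is labelled control mouse (WT7 and WT8), and the null group carries the hepatic reductase null genotype (N7 and N8). In the known line of this name the reductase is NADPH-cytochrome P450 oxidoreductase, deleted in hepatocytes by a Cre recombinase under the albumin promoter, so that other liver cells keep it. The labels do not state this, and they give no strain, sex or age. They say that RNA of 3 animals of a genotype was pooled for each experiment, while the control titles speak of a mouse, so a column may hold a pool or an animal. Nothing says more on how the arrays of a genotype are independent, and p-values measure the spread between these arrays only.

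The proteasome is the protease that degrades proteins tagged with ubiquitin. Its core particle is a barrel of alpha and beta rings, in which 3 beta subunits cut proteins. The regulatory cap binds ubiquitin chains, unfolds the substrate with a ring of ATPases and feeds it into the barrel. In cells of the immune system, or after interferon, Psmb8, Psmb9 and Psmb10 take the places of Psmb5, Psmb6 and Psmb7 and shift the cut peptides towards those that MHC class I molecules present. In liver the proteasome also removes several P450 enzymes from the endoplasmic reticulum membrane.

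Promoter windows of 7 of these genes are shown. They belong to 2 of the 3 exchange pairs of catalytic subunits (Psmb5 with Psmb8, Psmb6 with Psmb9) and to the 3 subunit genes of smallest p (Psmd8, Psmd12, Psme4). The remaining pair, Psmb7 with Psmb10, is not shown. They are RefSeq windows of GRCm38.p6 from 250 bases before to 50 bases after the gene's start, 5′ to 3′ along the gene. Capitals mark matches on either strand to TGACNNNGC (antioxidant response element core, bound by factors of the NRF family), CCAAT (the NF-Y box), TTCNNNGAA (STAT site) or the interferon-stimulated response element core (2 GAAA words with 2 free bases between them). None of the marked matches overlap. The windows lie at chr14:54617946-54618245, minus strand (Psmb5), chr17:34197945-34198244, plus strand (Psmb8), chr11:70525107-70525406, plus strand (Psmb6), chr17:34187281-34187580, minus strand (Psmb9), chr7:29180624-29180923, minus strand (Psmd8), chr11:107479278-107479577, plus strand (Psmd12) and chr11:30771525-30771824, plus strand (Psme4).
Psmb5: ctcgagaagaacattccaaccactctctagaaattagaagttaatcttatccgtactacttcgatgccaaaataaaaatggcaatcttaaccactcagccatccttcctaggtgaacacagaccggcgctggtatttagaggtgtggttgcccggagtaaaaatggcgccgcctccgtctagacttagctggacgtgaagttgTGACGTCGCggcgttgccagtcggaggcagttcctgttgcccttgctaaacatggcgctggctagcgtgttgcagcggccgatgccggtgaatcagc
Psmb8: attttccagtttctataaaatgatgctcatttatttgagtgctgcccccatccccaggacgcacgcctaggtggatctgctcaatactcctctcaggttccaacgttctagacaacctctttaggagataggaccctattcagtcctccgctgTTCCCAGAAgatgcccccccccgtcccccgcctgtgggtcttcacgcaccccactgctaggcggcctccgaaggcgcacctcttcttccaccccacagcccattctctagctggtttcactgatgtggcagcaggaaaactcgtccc
Psmb6: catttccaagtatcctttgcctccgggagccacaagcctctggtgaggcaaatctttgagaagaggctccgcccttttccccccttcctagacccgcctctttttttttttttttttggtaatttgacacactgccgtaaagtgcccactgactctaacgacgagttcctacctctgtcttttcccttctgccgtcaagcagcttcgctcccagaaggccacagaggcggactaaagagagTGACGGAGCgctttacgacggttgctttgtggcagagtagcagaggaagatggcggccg
Psmb9: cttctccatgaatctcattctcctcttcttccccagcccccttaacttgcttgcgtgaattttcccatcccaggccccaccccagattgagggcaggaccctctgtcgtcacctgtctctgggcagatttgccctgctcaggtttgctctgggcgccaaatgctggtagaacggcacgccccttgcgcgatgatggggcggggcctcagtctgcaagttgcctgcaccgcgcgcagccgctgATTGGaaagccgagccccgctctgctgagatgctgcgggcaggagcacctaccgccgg
Psmd8: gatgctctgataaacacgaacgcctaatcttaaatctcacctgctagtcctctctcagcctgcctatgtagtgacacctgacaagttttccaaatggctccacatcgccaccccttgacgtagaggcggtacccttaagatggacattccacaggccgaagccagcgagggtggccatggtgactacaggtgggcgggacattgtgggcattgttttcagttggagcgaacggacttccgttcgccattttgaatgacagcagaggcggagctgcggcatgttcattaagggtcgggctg
Psmd12: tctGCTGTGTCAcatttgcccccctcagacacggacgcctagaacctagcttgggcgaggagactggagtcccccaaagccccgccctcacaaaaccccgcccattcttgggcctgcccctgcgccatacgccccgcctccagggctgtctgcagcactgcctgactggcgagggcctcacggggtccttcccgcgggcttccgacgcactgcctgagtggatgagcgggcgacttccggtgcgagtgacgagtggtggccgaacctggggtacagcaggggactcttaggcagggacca
Psme4: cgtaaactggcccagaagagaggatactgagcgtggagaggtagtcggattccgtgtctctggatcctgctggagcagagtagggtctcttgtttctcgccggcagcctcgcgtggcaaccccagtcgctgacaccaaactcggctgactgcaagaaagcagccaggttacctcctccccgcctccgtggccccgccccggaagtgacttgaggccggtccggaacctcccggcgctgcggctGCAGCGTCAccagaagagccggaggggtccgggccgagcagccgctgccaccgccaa

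Psmb5 and Psmb6 each held an antioxidant response element core, with its first base 47 and 9 bases before the start. Their immunoproteasome counterparts held none, and Psmb8 held a STAT site 97 bases before the start. For Psmb7 and Psmb10, the remaining pair, no match to any of the 4 motifs was found, so this contrast was not seen there. Psmd12 and Psme4 held the antioxidant core on the other strand, and Psmd8 held none of the 4 motifs in this window. Of the 34 subunit genes with a window in the table, 6 (17.6%) held TGACNNNGC, against 12.4% of all 32851 windows, and 13 (38.2%) held CCAAT, against 37.4%. The interferon-stimulated core was found for 4 (11.8%, against 3.44%) and TTCNNNGAA for 2 (5.88%, against 8.30%). The 4 were Psmd4, Psmd9, Psmb3 and Psme1, of which only Psme1 is an immunoproteasome gene. A gene was counted if any of its windows matched (36 windows for the 34 genes), while the shares of all windows count single windows. A match describes letters in a window and is not evidence of binding.

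No proteasome subunit gene passed the test in either direction. On the brightest probe set of each gene, the largest differences among those tested were those of Psmd12 (1.55-fold) and Psmd8 (1.49-fold). Of the 40 subunit genes, 38 had a probe set bright enough to test. At an adjusted p under 0.05 (limma, Benjamini-Hochberg over 7453 probe sets) 0 of the 38 were higher and 0 lower, where 0.416% of all probe sets tested passed (0.322% higher and 0.0939% lower). At an unadjusted p under 0.05 there were 3 of 38 (7.89%), Psmd8 and Psmd12 with higher and Psme4 with lower signals, against 12.4% of all probe sets tested (6.05% higher and 6.32% lower). The null and control arrays did not overlap for 12 of the 38 genes (31.6%), 5 higher and 7 lower, against 43.4% of all probe sets tested (20.3% higher and 23.1% lower).

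**Figure D1:**
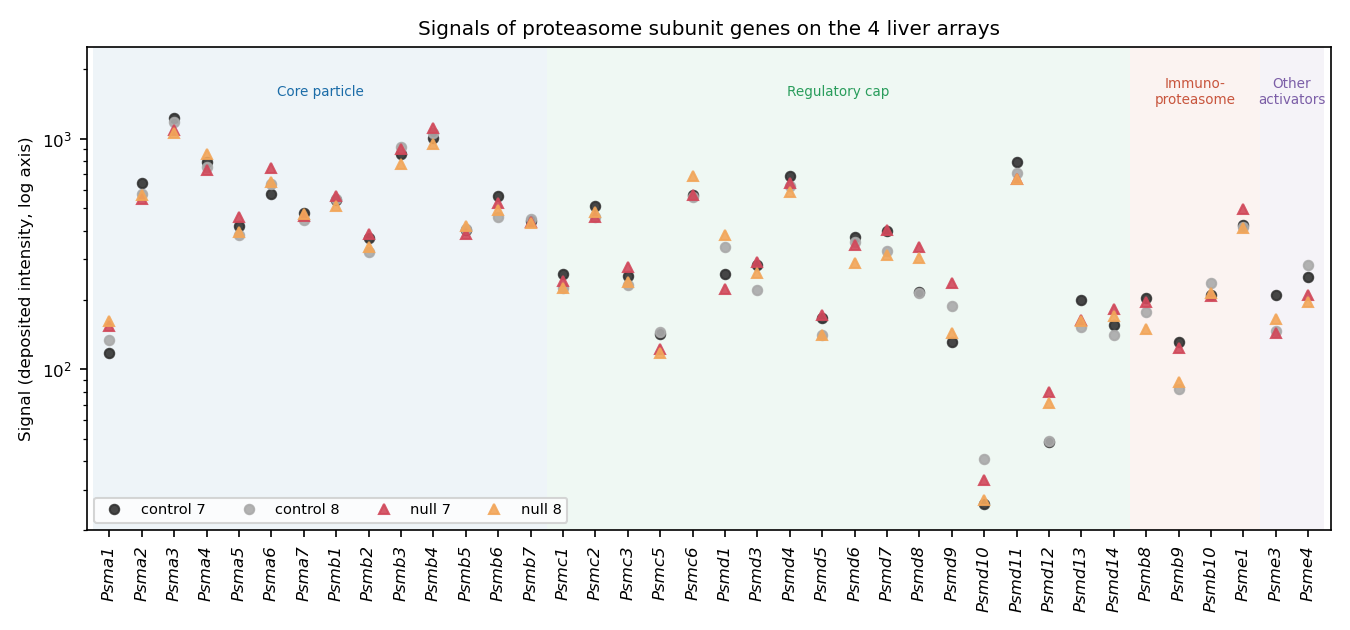
Deposited signal (log axis) of the brightest tested probe set of each of the 38 subunit genes on the control (circles) and null (triangles) arrays. The symbols of a gene lie close together for most genes. Null and control symbols do not overlap for 12 of the 38 genes, 5 above and 7 below (31.6%, against 43.4% of all probe sets tested). Among these are the 3 genes of smallest p, Psmd8 and Psmd12 (above) and Psme4 (below). Heights of different genes are not comparable, since each probe set has its own response.

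The size of the changes was small. The median log2 change (null minus control) of the 38 genes was -0.02, with 17 positive and 21 negative values from -0.39 to 0.63, and that of all probe sets tested was -0.01. The median size of the change, without its sign, was 0.10 for the subunit genes and 0.22 for all probe sets tested. Brighter probe sets vary less, and the subunit genes were bright, with a median signal of 349.2 against 72.7. Among probe sets with a mean signal over 200 the median size was 0.09 for the 27 subunit genes and 0.16 for all 1731. The 2 arrays of a genotype differed by a median of 0.16 (control pair) and 0.16 (null pair) for the subunit genes; these are differences of single arrays, while the genotype change is one between means of 2.

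**Figure D2:**
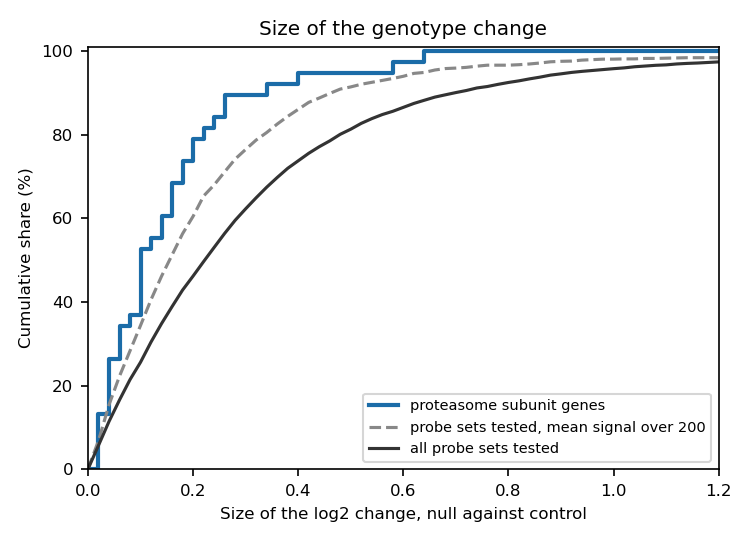
Cumulative share of genes or probe sets (vertical axis, percent) whose log2 change between null and control liver is at most the size on the horizontal axis. The line of the 38 subunit genes lies to the left of both other lines, with 84.2% of its genes under a size of 0.25 against 69.6% of the tested probe sets with a mean signal over 200 and 54.7% of all tested.

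A p that misses the threshold does not show that a gene was equal in both genotypes, so the intervals matter more. The 95% interval of the log2 change lay wholly within a 1.5-fold change either way for 26 of the 38 subunit genes (68.4%), against 29.2% of all probe sets tested. With a mean signal over 200 it was 88.9% of the 27 subunit genes against 70.9% of the 1731 probe sets. It lay within a 2-fold change for 37 of 38, against 4850 of the 7453 probe sets tested. The exception was Psmd12. With a mean signal over 200 it lay within 2-fold for all 27 subunit genes and for 1636 of the 1731 probe sets. The standard errors of the 38 changes ran from 0.09 to 0.35 with a median of 0.14.

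**Figure D3:**
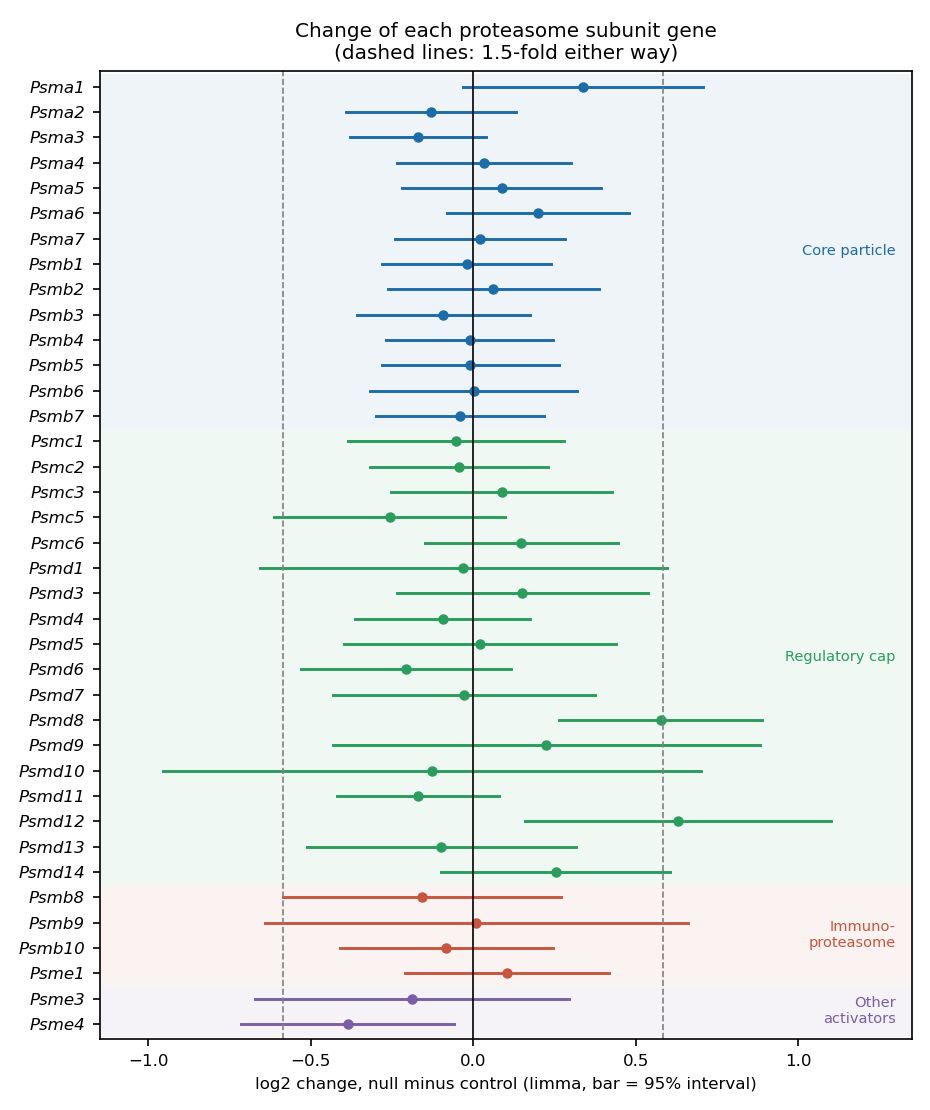
Log2 change (null minus control, points) of each of the 38 subunit genes with its 95% interval from limma (bars), by role; dashed lines mark a 1.5-fold change. The intervals of Psmd8, Psmd12 and Psme4 do not cross 0, before any adjustment over the probe sets tested.

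In the core particle no gene changed past the threshold. All of its 14 genes were tested, 7 changes were positive and 7 negative, and the median was 0.00 (-0.0042). The interval lay within a 1.5-fold change for 13 of them, Psma1 being the exception. The median size of the change was 0.05 against 0.14 for the cap, a difference that was not tested. The core genes were also brighter (median signal 525.5 against 258.3), with a smaller median standard error (0.11 against 0.15). The 7 genes of the catalytic beta ring ran from -0.09 (Psmb3) to 0.06 (Psmb2). The 7 of the alpha ring, which gates the entry of the barrel, ran from -0.17 (Psma3) to 0.34 (Psma1).

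Psma1, an alpha ring subunit, read 117.5 and 133.5 in control liver and 154.1 and 162.6 in null liver. Both null arrays lay above both controls, by 0.34 ± 0.16 on the log2 scale (SE, n = 2 each, adjusted p = 0.449). Psma3, another alpha subunit, went the other way, from 1234.8 and 1185 in control liver to 1087.7 and 1062.2 in null liver. Its groups did not overlap either, and its change was -0.17 ± 0.09 (SE, adjusted p = 0.493). Psma6, which did not overlap, was at 0.20 ± 0.12 (SE), and Psma2, also without overlap, at -0.13 ± 0.11.

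The 3 catalytic subunits of the standard proteasome had changes within 0.05 of 0 on their brightest probe sets. Psmb5, which cuts after hydrophobic residues, had signals of 402.3 and 406.7 in control and 386.7 and 417.6 in null liver. Its null arrays spanned the control values, and the change was -0.01 ± 0.11 (SE), with a 95% interval of 0.82-fold to 1.20-fold. A dimmer probe set of Psmb5 was at 0.12 ± 0.36. Psmb6, which cuts after acidic residues, read 563.9 and 458.3 in control and 525.9 and 492.1 in null liver. The groups overlapped, and the change was 0.00 (0.001 ± 0.13). Psmb7, which cuts after basic residues, lay at 440.6 and 448.9 in control and at 433.6 and 430.5 in null liver, a change of -0.04 ± 0.11. The null values of Psmb7 lay just below both controls, by less than its SE. Psmb1, a non-catalytic beta subunit, was at -0.02 ± 0.11 on its brightest probe set and at 0.13 ± 0.19 on another.

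In the regulatory cap 18 of 20 genes were tested, with 8 positive and 10 negative changes and a median of -0.03. The 5 tested ATPases, Psmc1, Psmc2, Psmc3, Psmc5 and Psmc6, ran from -0.26 (Psmc5) to 0.15 (Psmc6). Psmc5 had signals of 142.6 and 144.5 in control and 122.3 and 118 in null liver. Both null arrays were lower, by 0.84-fold on the ratio scale, with a log2 change of -0.26 ± 0.15 (SE, adjusted p = 0.542). The 3 tested probe sets of Psmc3 disagreed in sign within their errors, at 0.09 ± 0.14, -0.05 ± 0.14 and -0.07 ± 0.20.

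Among the 38 genes tested, on their brightest probe sets, the largest differences belonged to a pair of lid subunits. Psmd8 read 217.2 and 214 in control liver and 340.6 and 303.4 in null liver. The control arrays nearly coincided and both null arrays stood above them, with means of 215.6 ± 2.26 and 322 ± 26.3 (SD, n = 2 each). The log2 change was 0.58 ± 0.13 (SE), 1.49-fold with a 95% interval of 1.20-fold to 1.85-fold, and it did not pass over all probe sets tested (adjusted p = 0.146 in limma).

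Psmd12 read 48.5 and 48.7 in control and 79.4 and 71.2 in null liver. It was dimmer than most members, on a probe set of a kind (_f_at) that can also bind related transcripts, and its groups did not overlap. The log2 change was 0.63 ± 0.20 (SE), 1.55-fold with an interval of 1.12-fold to 2.14-fold (adjusted p = 0.27 in limma). Leaving out 1 array at a time gave 0.49 to 0.66 for Psmd8 and 0.55 to 0.71 for Psmd12.

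The other lid genes had changes of both signs, and none passed the test. Psmd14, the deubiquitinase that strips ubiquitin from substrates at the cap, was at 0.25 ± 0.15 (SE), with 155.1 and 140.8 in control and 182.6 and 170 in null liver. Psmd7, its partner, was at -0.03 ± 0.17. The lid genes Psmd3, Psmd6 and Psmd13 were at 0.15, -0.21 and -0.10. Psmd11 was at -0.17 ± 0.11 on its brightest probe set, at -0.02 ± 0.12 on the second and at -0.77 ± 0.34 on another, dim one (49.2 and 43.1 against 20.6 and 35.4), so its probe sets agreed in sign and differed in size. Psmd4, the ubiquitin receptor, was at -0.09 ± 0.11, and Psmd1, a large scaffold of the base, at -0.03 ± 0.26 with arrays of a genotype far apart (259.9 and 340.3 in control, 222.1 and 381.3 in null).

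The cap assembly chaperones, which guide the ATPase ring and leave the finished cap, were not past the threshold. Psmd5 was at 0.02 ± 0.18, Psmd9 at 0.23 ± 0.28 and Psmd10, also known as gankyrin, at -0.13 ± 0.35 on a dim probe set. Psmc4 and Psmd2 were too dim to test. Psmc4, an ATPase, read 6.5 and 5 in control liver, both under the floor of 7.1 below which a signal was treated as background, and 20 and 14.8 in null liver. The null mean on the log2 scale was 2.42-fold the floor. With both control values under the floor, this is no measured fold change between the genotypes. The limma fit without a filter on dim probe sets gave Psmc4 an adjusted p of 0.329. Psmd2, the other large scaffold, read 11.7, 4.9, 3.6 and 18.9 (control 7, control 8, null 7, null 8), with no order between the groups.

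No immunoproteasome gene passed the test in either direction. Of the 4 tested, 2 changes were positive and 2 negative, and the median was -0.04. The groups overlapped for all 4, where 43.4% of all probe sets tested did not overlap. Psmb8 had signals of 203.8 and 177.4 in control and 195.1 and 148.9 in null liver, a change of -0.16 ± 0.18 (SE, adjusted p = 0.77). Psmb9 read 131.3 and 82.5 in control and 124.2 and 88.4 in null liver, a change of 0.01 ± 0.27 (adjusted p = 0.994). In both genotypes the array numbered 7 gave the higher value of these genes. Psmb10 read 210.8 and 236.4 in control and 208.4 and 213.3 in null liver, at -0.08 ± 0.14 (adjusted p = 0.85).

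Psme1, a subunit of the interferon-inducible activator ring, had signals of 423.2 and 413.4 in control and 495.2 and 408.2 in null liver. Only null replicate 7 stood apart, and the change was 0.10 ± 0.13 (SE, adjusted p = 0.80). The 95% intervals reached from 0.67-fold to 1.21-fold for Psmb8, from 0.64-fold to 1.58-fold for Psmb9, from 0.75-fold to 1.19-fold for Psmb10 and from 0.86-fold to 1.34-fold for Psme1. The median of the 4 genes turned to 0.14 without null replicate 8.

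The balance of each exchange pair was followed in RNA only, as the log2 ratio of the immunoproteasome gene to its constitutive counterpart. The ratio was taken on the same array and set to 0 at the control mean. Exchange of the subunit proteins in the core particle was not measured. For Psmb8 over Psmb5 it was 0.11 and -0.11 in control liver and 0.10 and -0.40 in null liver. The null mean was -0.15, less than the SD of the null pair (0.35). For Psmb9 over Psmb6 it was 0.19 and -0.19 in control and 0.21 and -0.19 in null liver, a null mean of 0.01. For Psmb10 over Psmb7 it was -0.07 and 0.07 in control and -0.06 and -0.02 in null liver, a null mean of -0.04. No pair shifted by more than the larger SD of its groups, and 2 arrays against 2 allow no exact permutation p below 0.333 (two-sided).

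**Figure D4:**
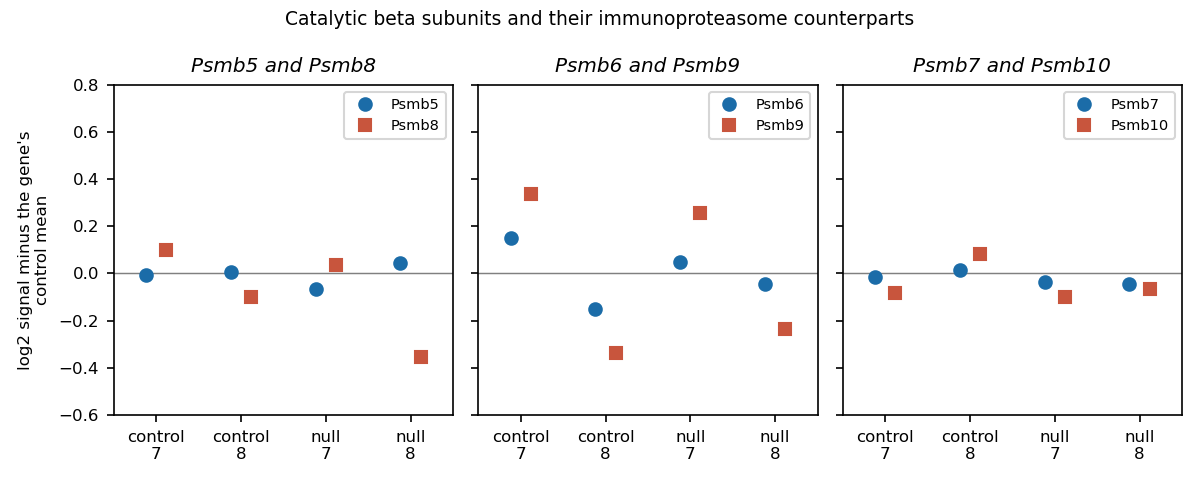
Log2 signal of the catalytic beta subunits Psmb5, Psmb6 and Psmb7 (circles) and of their immunoproteasome counterparts Psmb8, Psmb9 and Psmb10 (squares) on each array, minus the gene's control mean. Control values are symmetric around 0 by construction; both null values lie slightly below 0 for Psmb7 and Psmb10, Psmb8 is lowest on null replicate 8 (-0.35), and Psmb9 is high on both arrays numbered 7.

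Neither of the other activators passed the test. Psme4, which encodes PA200, a large activator of the core particle, had signals of 251.1 and 282.1 in control and 211 and 196.4 in null liver. Both null arrays lay below both controls, a log2 change of -0.39 ± 0.14 (SE), 1.31-fold lower, with an adjusted p of 0.325 in limma. Psme3, the nuclear activator, read 209.8 and 147.3 in control and 143.7 and 165.5 in null liver, where the groups overlapped (-0.19 ± 0.20). The non-subunits gave no call either, with Psme3ip1, a partner of the Psme3 protein, at -0.13 ± 0.19, and Psmc3ip, of meiotic recombination, too dim to test (13.6, 1.1, 7.1 and 3.7).

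Cap genes mostly read higher on the array numbered 7 than on the array numbered 8, in 13 of 18 genes in control and 14 of 18 in null liver. Over all 7453 probe sets tested, 3562 read higher on array 7 in control and 3494 in null liver. Of the 18 tested cap genes, 10 (55.6%) had a higher signal on array 7 than on array 8 in both genotypes, and 1 a lower one in both. Over the 38 subunit genes it was 17 (44.7%) and 4, and over all probe sets tested 21.4% were higher and 26.4% lower on array 7 in both. Most of the 10 cap genes follow from the counts within each genotype alone. Across the cap genes the differences of the control pair and of the null pair had a Pearson correlation of -0.0134 over genes, which are not independent replicates. The median log2 difference of array 7 over array 8 for the cap genes was 0.14 in control and 0.15 in null liver, and the median genotype difference was -0.03. This comparison was added after the values were seen. Null replicate 7 also carried signals of pancreatic acinar genes, with a sum of 2860 over 6 genes against 231.8 to 355.6 on the other arrays, and the part of this in the subunit signals was not tested.

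Genes that work beside the proteasome gave no call. Of all probe sets tested in limma, 0.416% passed and 12.4% had an unadjusted p under 0.05, and 43.4% had arrays without overlap. Of 8 tested assembly, inhibitor and further cap genes 0 passed, with 6 positive and 2 negative changes, a median of 0.08 and 0 at an unadjusted p under 0.05 in limma. Pomp, the chaperone that completes the core particle, was at -0.20 ± 0.18 (SE), Txnl1, a thioredoxin bound to the cap, at 0.33 ± 0.16 and Sem1, a small lid subunit, at 0.02 ± 0.11. Of 14 ubiquitin, shuttle and proteasome regulator genes 0 passed in limma and 1 had an unadjusted p under 0.05, with 8 positive and 6 negative changes and a median of 0.03. That gene was Bag6, a chaperone for misdirected proteins, at 0.40 ± 0.16 (adjusted p = 0.38). Nfe2l1, the transcription factor that raises proteasome genes when the protease is inhibited, lay at 250.2 and 256.5 in control and at 273.1 and 276 in null liver. Its groups did not overlap, at 0.12 ± 0.12 (SE, adjusted p = 0.755).

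The partners of the immunoproteasome in antigen presentation gave 0 calls among 8 tested genes in limma, with 6 positive and 2 negative changes, a median of 0.06 and 2 at an unadjusted p under 0.05. The shares over all probe sets tested were 0.416% called, 12.4% at an unadjusted p under 0.05 and 43.4% without overlap. Tap1, a chain of the peptide transporter, read 77.5 and 71.8 in control and 137.1 and 98.7 in null liver. Its groups did not overlap and its change was 0.64 ± 0.21 (SE, adjusted p = 0.287), while that of Psmb9 was 0.01. The promoter windows of Psmb9 and Tap1 point in opposite directions and share 275 bases (chr17:34187306-34187580, GRCm38.p6). The difference between both genes was not tested. Tap2, the other chain of the transporter, was at -0.16 ± 0.30 with overlapping groups. Tapbp, which loads peptide on class I molecules, was at 0.43 ± 0.17 (adjusted p = 0.365 in limma). The class I light chain B2m was at 0.07 ± 0.08, and the class I genes H2-K1 and H2-D1 were at 0.03 and 0.04.

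Of 18 tested interferon signalling genes and targets 0 passed in limma and 1 had an unadjusted p under 0.05, with 10 positive and 8 negative changes and a median of 0.03. That gene was Igtp, an interferon-inducible GTPase, at 0.49 ± 0.18 (adjusted p = 0.34). Over all probe sets tested in limma, 0.416% passed and 12.4% had an unadjusted p under 0.05. Irf1, a factor that turns on immunoproteasome genes, was at 0.04 ± 0.21. Isg15, a ubiquitin-like modifier, was at 0.33 ± 0.18 with no overlap. Iigp1, also on this list, went the other way, at -0.18 ± 0.11 with overlapping groups. Of the 18 genes, 4 had higher and 2 had lower null signals without overlap. Arrays did not overlap for 43.4% of all probe sets tested.

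Immunoproteasome genes are high in leukocytes, so markers of other liver cells are set beside them. The counts below stand against 0.416% of all probe sets tested that passed in limma. A further comparison is the 12.4% with an unadjusted p under 0.05 (6.05% higher and 6.32% lower). Of 13 macrophage and Kupffer cell markers 1 rose (Mpeg1, at 1.38, adjusted p = 0.02), 12 of 13 changes were positive, 5 had an unadjusted p under 0.05 (all higher), and their summed signal was 2818 to 2851 in control and 3537 to 3859 in null liver. Of 7 pan-leukocyte markers 0 passed in limma and 1 had an unadjusted p under 0.05, with sums of 700.5 to 726.7 and 737 to 809.3. All 7 stellate cell and fibroblast markers had positive changes, 0 passed in limma and 4 had an unadjusted p under 0.05, with sums of 1162 and 1212 in control and 1489 and 1799 in null liver. Endothelial markers gave 3 positive and 3 negative changes of 6, B and plasma cell markers 3 and 2 of 5, and T and NK cell markers 2 positive of 2 tested, with 0 calls in each list in limma and 0, 1 and 0 at an unadjusted p under 0.05. Hepatocyte markers, of which 9 were tested, gave 3 positive and 6 negative changes and 0 calls in limma (4 at an unadjusted p under 0.05, all lower), with summed signals of 41220 and 41560 in control and 39460 and 37070 in null liver, lower on both null arrays. The part of these cell types in the subunit signals was not tested, and in whole liver fewer cells of a type and less RNA per cell cannot be told apart.

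Over the whole array 31 of 7453 tested probe sets passed, 24 with higher and 7 with lower null signals, and 0 passed without the intensity trend or without the filter on dim probe sets. The reductase itself was not analysed here, so the null label was not checked against it. Each array had the same trimmed mean signal (100.1), and 24.7% to 25.6% of its probe sets lay at or below the floor.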

How the data were processed

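Liver RNA was measured on 4 MG_U74Av2 arrays. The deposited values are linear signal intensities, 1 per probe set, which the authors obtained with GCOS software and scaled by the chip's total fluorescence, according to the labels. No software version or scaling target was found in the labels.

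From these, values under 7.1 (25th percentile over the arrays) were set to 7.1, converted to log2 and not normalised again. Of 12422 probe sets that are no controls, the 7453 above the 40th percentile of mean log2 signal (15.4) were tested with limma 3.58.1 in R 4.3.3 (lmFit, eBayes with an intensity trend, genotype only, two-sided), adjusted by Benjamini-Hochberg, threshold 0.05. The spread pooled over probe sets had 4.88 degrees of freedom and the arrays' own 2. Array number limits the precision. The steps were tested on simulated data with planted changes larger than that of any tested subunit gene. The simulation therefore does not show how often changes as small as those of the subunit genes would be found.

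Symbols came from the platform annotation, brought up to date by gene identifier with the GRCm38.p6 table, which matched all 53 member probe sets. A gene was represented by its brightest tested probe set; 7 members had several, and 13 of the 53 probe sets are of kinds that can bind related transcripts. Full statistics were given to the 6 members of smallest p, the immunoproteasome genes and Psmb5, Psmb6 and Psmb7. Up to 4 genes of smallest p were named per neighbour list. Pomp, Sem1, Nfe2l1, B2m, Tap2, H2-K1, H2-D1, Irf1, Mpeg1 and further members were named as background to the roles, after their values were seen. The members, lists and motifs were chosen with earlier results of these data known. Protein sequences were not used here. Alternatives were another floor, an added constant of 16, no filter, other scalings, no trend, a replicate block, other probe set rules and leaving out each array. A filter at the 40th percentile of the pooled signals was added after the data were seen. The same-numbered arrays correlated at -0.0288 in their deviations from the group means over the 7453 probe sets.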

Additional observations from a re-analysis of the deposited data

How the results depend on the processing

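No proteasome gene passed, higher or lower, in any of the alternatives run: a floor at the 50th percentile, log2(signal + 16), no filter on dim probe sets, a common median, quantile normalization, no intensity trend, the replicate block, each array left out, any tested probe set of a gene counted, and the added filter on pooled signals (0 higher and 0 lower in each). With few or no probe sets passing on the whole array in several of these fits, 0 proteasome genes says little of stability. The count over all probe sets changed with the setting. It was 24 higher and 7 lower as reported, 1 and 0 with the floor at the 50th percentile, 0 and 0 without the filter, 0 and 0 without the intensity trend, 30 and 12 with quantile normalization, 33 and 11 with the replicate block, and 11 to 16 higher and 0 to 4 lower with 1 array left out. The labels do not say that the replicate numbers pair the samples. With the replicate block 0 proteasome genes passed; in this balanced design the block cannot change the fitted log2 changes, with medians of -0.0042 (core), -0.0294 (cap) and -0.0364 (immunoproteasome), so these say nothing of stability.

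With arrays scaled to a common median, which lowers every null value against control, the median of the core particle genes went to -0.076, and Psma4 (-0.039), Psma7 (-0.051), Psmb2 (-0.011), Psmb6 (-0.071), Psmb9 (-0.062) and Psmd5 (-0.050) changed sign. With quantile normalization Psmb1 (0.0080) and Psmb5 (0.015) changed sign. These changes of sign lay around 0 and no call depended on them. Leaving out 1 array gave medians of -0.04 to 0.03 for the core, -0.10 to 0.07 for the cap and -0.15 to 0.14 for the immunoproteasome. By gene, the lowest and highest values with 1 array left out had opposite signs for Psma4 (-0.0791 to 0.14), Psma5 (-0.0179 to 0.19), Psma7 (-0.0291 to 0.0700), Psmb1 (-0.0883 to 0.0484), Psmb10 (-0.17 to 0.0002), Psmb2 (-0.0406 to 0.16), Psmb3 (-0.20 to 0.0169), Psmb4 (-0.12 to 0.10), Psmb5 (-0.0649 to 0.0460), Psmb6 (-0.15 to 0.15), Psmb8 (-0.35 to 0.0371), Psmb9 (-0.33 to 0.34), Psmc1 (-0.15 to 0.0446), Psmc2 (-0.12 to 0.0347), Psmc3 (-0.0217 to 0.20), Psmd1 (-0.42 to 0.36), Psmd10 (-0.45 to 0.20), Psmd13 (-0.29 to 0.0976), Psmd3 (-0.0264 to 0.33), Psmd5 (-0.13 to 0.17), Psmd7 (-0.21 to 0.15), Psmd9 (-0.13 to 0.58), Psme1 (-0.0352 to 0.24), Psme3 (-0.44 to 0.0662), Psme3ip1 (-0.31 to 0.0545). The median standard error of 0.14 leaves changes of that size in a single gene unresolved.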
